A study of Mus musculus with 18 samples.

Results

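The wells described here held mural cells, the pericytes and smooth muscle cells that wrap small blood vessels, from the hearts of mice at postnatal day 4 (P4) and postnatal day 7 (P7). They were chosen by marker transcripts from single-cell RNA-seq of hearts that had been dispensed into ICELL8 nanowell chips. A well was kept when its Type entry named no control, at least 500 genes were detected in it, and 4 or more of 6 mural genes (Rgs5, Pdgfrb, Kcnj8, Higd1b, Notch3 and Steap4) had a unique molecular identifier (UMI, the tag that counts one captured mRNA). The summed UMIs of those 6 genes also had to exceed the sum of 6 endothelial genes (Pecam1, Kdr, Egfl7, Esam, Cdh5 and Fabp4) and the sum of 6 macrophage genes (C1qa, C1qb, C1qc, Lyz2, Tyrobp and Fcer1g), and to reach 0.1% of the well's non-mitochondrial gene UMIs. The rule kept 251 of the 4822 wells with 500 or more genes on the P4 and P7 chips, and the whole series held 20498 such wells. Because these values chose the wells, levels of mural wells beside other wells are given as a description, with no test, and the genes of the rule are given as values only.

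Each stage was represented by 2 chips, and the well reports give the same animal names, M1 and M2, on every chip. Whether the 2 chips of a stage held the same mice is not stated, so they may be repeat runs of the same animals. The mice were labelled wildtype with no knockdown and carried the Myh6/Esr1-Tomato strain label, a cardiomyocyte-driven, tamoxifen-dependent Cre with a tdTomato reporter, and per the study's methods tamoxifen was given by mouth to the mothers in the first days after birth. Per the labels, pieces of ventricle were taken at P4 and P7 and digested with the same cardiomyocyte isolation kit, and per the labels cardiomyocytes and other cells were separated by centrifugation, whereas the study's methods describe separation by adherence for neonatal hearts, so the share of a cell type on a chip reflects what was loaded as well as the heart. The chips carried 26 and 50 mural wells at P4 and 89 and 86 at P7. For comparison, the same chips held 1732 fibroblast wells, in which 6 fibroblast genes (Col1a1, Col3a1, Col1a2, Dcn, Pdgfra and Lum) formed the largest of the 4 sums, and 1265 endothelial wells, in which the endothelial genes did, each with 4 or more genes of its own set detected.

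Pericytes share a basement membrane with the endothelium of capillaries, and smooth muscle cells ring larger vessels and contract to set blood flow. Endothelial PDGF-B draws mural cells to growing vessels through the receptor PDGFRB, and NOTCH3 signalling maintains them. Cardiac pericytes are known for an ATP-sensitive potassium channel made of the pore Kcnj8 and the sulfonylurea receptor Abcc9, and the coronary vessels around which they sit still expand in the first weeks after birth.

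Of the 251 wells, 103 had 4 mural genes detected, 97 had 5 and 51 had all 6. The mural sum had a median of 134 UMIs per well, or 0.766% of non-mitochondrial gene UMIs (lowest 0.128%, highest 3.44%). The medians were 0.126% for the endothelial sum and 0.164% for the fibroblast sum. The macrophage sum was 0 in 185 wells. The wells just inside the limit, with 4 genes, had a median mural sum of 80 UMIs (0.683%), and 84 wells just outside it, with 3 genes and every other condition met, had 51.5 UMIs (0.449%). Another 27 wells had 4 or more mural genes but an endothelial or macrophage sum at least as large, and 6 fell under the share limit. The rule did not compare the mural with the fibroblast sum: the fibroblast sum was the larger in 18 members, none of them on P4 replicate 1. In 130 members 4 or more fibroblast genes were detected, and in 89 members 4 or more endothelial genes.

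Depth differed between the chips. The mural wells of P4 replicate 1 had a median of 8053 UMIs, those of P4 replicate 2 had 16897.5, and those of P7 replicates 1 and 2 had 20265 and 23806.5. Summed per chip they gave 489893, 1396191, 2345763 and 2664487 UMIs, so the P4 sums rest on fewer cells, and the deepest well alone supplied 19.8% of the sum on P4 replicate 1. Mitochondrial transcripts took 34.1% and 21.5% of gene UMIs in mural wells at P4 and up to 51.2% at P7, against 19.2% to 19.5% and then 47.5% to 48.0% in fibroblast wells. Between 229 and 337 well barcodes recurred between pairs of chips, with at most 1 between mural wells. Levels are given as CPM, the UMIs of a gene scaled to a total of 1e6 non-mitochondrial gene UMIs, after summing the mural wells of a chip, given in the order P4 replicate 1, P4 replicate 2, P7 replicate 1, P7 replicate 2.

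The genes of the rule are given first, as values that the choice of wells fixed. Rgs5, a regulator of G protein signalling and the classic pericyte transcript, was detected in all 251 wells at 4034, 2453, 4048 and 3022 CPM, against 70.1 to 158 CPM in fibroblast and 86.7 to 166 CPM in endothelial wells. Pdgfrb stood at 812, 936, 778 and 657 CPM, and Higd1b at 1029, 2390.1, 1425 and 2089.7 CPM. Kcnj8 was at 723, 689, 1125 and 692 CPM. Steap4, a metalloreductase, was at 179.6, 254, 306 and 214 CPM and Notch3 at 269, 129.6, 201 and 169 CPM. The P4 and P7 chips overlapped in their levels of each of these 6 genes except Pdgfrb, for which both P7 chips lay below both P4 chips.

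The label was checked with markers that the rule did not use. A list of 32 pericyte genes outside the rule summed to between 6021 and 7155 CPM in mural wells, against 1310.1 to 1503 CPM in fibroblast and 1086 to 1458 CPM in endothelial wells. Of its 30 members that passed the filter on low counts, 19 (63.3%) were highest in mural wells on every chip and none was lowest, whereas 3.64% of the 10244 genes of the fit outside the marker sets were highest there. The filter was applied to the mural sums alone. Listed genes scarce in mural wells were thus left out of this count, of the later counts of highest genes and of the share over all genes. Since the wells were also chosen for mural transcripts, these counts are a description. With each well thinned to 2000 UMIs, the median mural well kept 12 to 13 UMIs of the list on every chip and the median fibroblast or endothelial well kept 2.

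Abcc9, the partner of Kcnj8 in the potassium channel, was at 586, 729.8, 819.8 and 650 CPM, at least 8.14 times the higher of the fibroblast and endothelial level on every chip. Both subunits were detected in 183 of the 251 wells, and neither in 14. Vtn, which encodes vitronectin, was at 139, 228, 503 and 308 CPM and no higher than 22.5 CPM in the other classes. Cspg4, the NG2 proteoglycan used to stain pericytes, was at 294, 299, 349 and 177 CPM against at most 25.6 CPM. Colec11, a collectin of the complement system, was at 963, 738, 861 and 684 CPM against at most 72.4 CPM.

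Ranked by the smallest ratio over the 4 chips to the higher of the other classes, the leading genes of 1739 with at least 50 CPM in every mural sum, with the rule genes and genes of Gm or Rik names left out, were carboxypeptidase M (gene symbol Cpm, ratio 17.6), Vtn (13.7), Cspg4 (11.7), Colec11 (10.2), Cox4i2 (9.08) and Abcc9 (8.14). Kcnmb1 (7.7), Olfr558 (7.34), Atp1b2 (7.31), Art3 (7.02), S1pr3 (6.7), Rgs4 (5.71), Arhgdib (4.72), Gnas (4.58) and Mark1 (4.14) completed the first 15. Of these 1739, 12 genes kept every chip ratio over 5 and 33 kept it over 2. On mm10 the first 3 lie at chr10:117629500-117687352, chr11:78499091-78502324 and chr9:56865033-56899870. The transcript of carboxypeptidase M, an enzyme of the cell surface that trims peptides, was at 176, 97.4, 138 and 95 CPM in mural wells and at most 6.32 CPM elsewhere. It was found in 69 of the 251 mural wells, Kcnmb1 in 40 and Mark1 in 37, whereas Colec11 was found in 189. Cox4i2, the hypoxia-related isoform of a cytochrome c oxidase subunit, was at 649, 216, 812 and 637 CPM. Olfr558, an olfactory receptor gene, was at 59.2, 80.2, 134 and 66.1 CPM in 51 wells. Gnas, an imprinted gene for the stimulatory G protein, was lower on both P7 chips (76.3 and 78.4 CPM) than on both P4 chips (186 and 118 CPM).

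**Figure D1:**
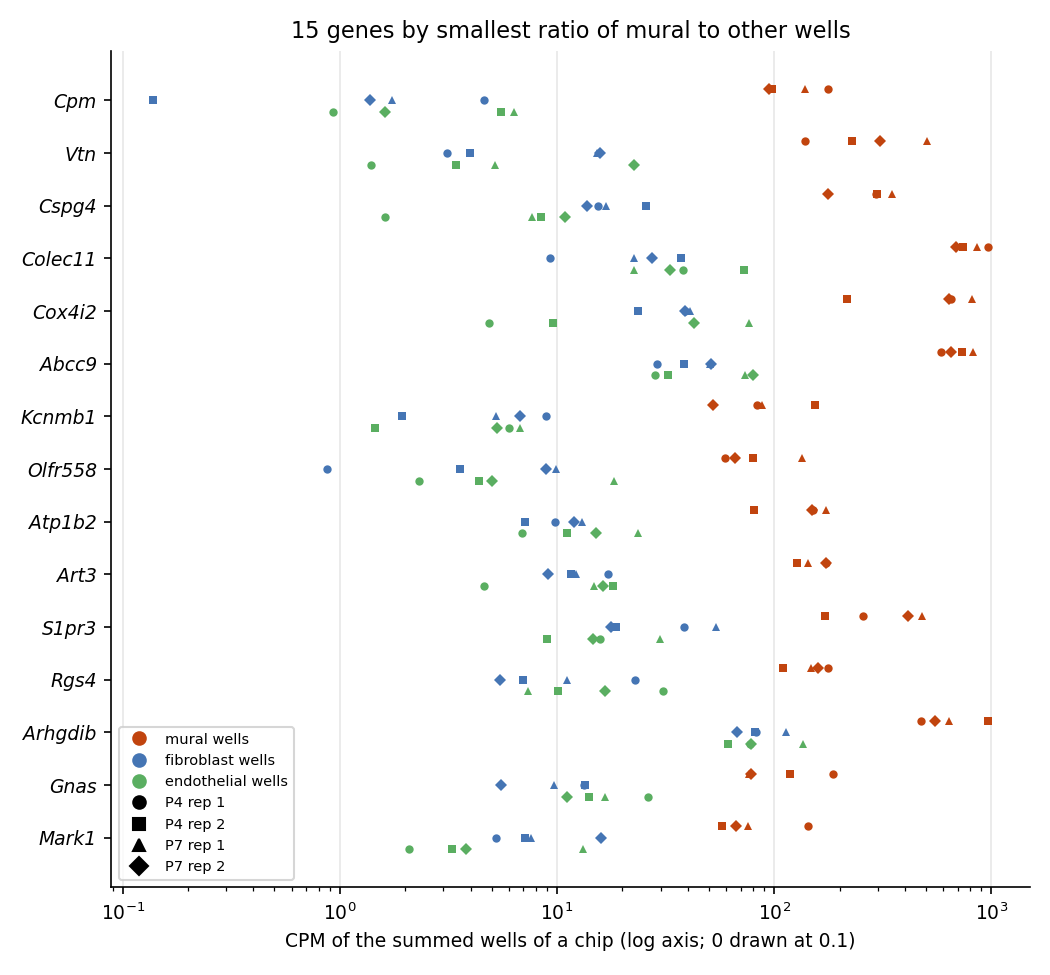
CPM of 15 genes in the summed wells of each chip on a log axis, with mural, fibroblast and endothelial wells in 3 colours and the chips as marker shapes. In every row the 4 mural points lie to the right of all fibroblast and endothelial points, and for Mark1, the last gene listed, the smallest ratio within a chip was 4.14.

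Other cell types that the wells could hold were checked by their markers. The 12 cardiomyocyte genes summed to between 15770.1 and 19878 CPM in mural wells and to similar amounts in fibroblast (14434 to 20592 CPM) and endothelial wells (16020.1 to 21502 CPM), and Myl2, the ventricular myosin light chain, was detected in all 251 mural wells. Lymphocyte genes summed to at most 14.3 CPM, Schwann cell genes to at most 16.3 CPM and epicardial genes to at most 105 CPM. Sox10, the Schwann lineage factor, and Cd3e were at 0, and the 6 fibroblast genes, which also set the fibroblast class, summed to between 1881 and 3110.3 CPM in mural wells, against 10894 to 13645 CPM in fibroblast and 649 to 1165 CPM in endothelial wells. What the cardiomyocyte and fibroblast transcripts contributed to other results was not tested.

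Contractile genes were the second group in which mural wells stood out. Of 27 listed genes, 26 passed the filter on the mural sums, and 9 of them (34.6%) were highest in mural wells on every chip. The lowest there numbered 1 (3.85%), against 3.64% highest and 5.71% lowest over all genes. The 9 highest were Acta2, Myl9, Mylk, Tpm2, Cald1, Flna, Synpo2, Mrvi1 and Ppp1r14a. Acta2, smooth muscle actin, was at 939, 1298, 1055 and 847 CPM against 426 to 638 CPM in fibroblast and 152 to 263 CPM in endothelial wells. Mylk, the kinase that starts smooth muscle contraction, was at 476, 312, 446 and 311 CPM against at most 113 CPM, and Myl9, the light chain it phosphorylates, was at 482, 1753, 1154 and 1042 CPM. Cald1, caldesmon, was at 2096, 2394, 2931 and 2212 CPM.

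Several other contractile transcripts were found in a minority of wells. Myh11, the smooth muscle myosin heavy chain, was found in 51 wells at 75.5, 122, 255 and 193 CPM, and fibroblast wells reached 209 CPM. Tagln was found in 44 wells at 188, 129.6, 156 and 27.4 CPM, and fibroblast wells ranged from 76.8 to 328 CPM. Cnn1, calponin, was found in 11 wells, and 78.4% of its UMIs came from 1 well. Des, desmin, was found in 108 wells and ranged from 65.2 CPM on P4 replicate 2 to 457 CPM on P4 replicate 1.

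Many smooth muscle promoters hold a CArG box, the site bound by serum response factor, and 4 of the 22 contractile genes with a RefSeq promoter (18.2%) held one in the 250 bases before the start, against 439 of 27025 genes (1.62%) overall and 0 of 21 pericyte genes. The box was searched as CC, then 6 bases that are A or T, then GG, a form that reads the same on both strands. The 4 genes were Myl9, Myl6, Filip1l and Srf, the gene of the factor itself, which the list includes. Myl6 and Filip1l each also had a promoter without a box. Of the 9 contractile genes highest in mural wells on every chip, Myl9 alone held a box of this exact form. A box with another base among the 6 was not counted. The Acta2 stretch, for example, holds the near matches ccctatatgg and ccttgtttgg, so a count of 0 does not mean that a gene lacks a CArG box. The promoters printed here are those of Myl9 and Srf, with the box in capitals. Both are from RefSeq on GRCm38.p6, read on the gene's strand and ending at the base before the start. The Myl9 promoter is chr2:156775214-156775463 on the plus strand, with the box beginning at position -161 from the start. The Srf promoter is chr17:46556163-46556412 on the minus strand, with boxes at -82 and -62.
Myl9: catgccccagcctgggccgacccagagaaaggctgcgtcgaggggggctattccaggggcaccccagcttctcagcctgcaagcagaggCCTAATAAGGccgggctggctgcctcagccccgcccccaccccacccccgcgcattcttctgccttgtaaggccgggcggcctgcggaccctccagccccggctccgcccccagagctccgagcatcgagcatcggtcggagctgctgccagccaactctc
Srf: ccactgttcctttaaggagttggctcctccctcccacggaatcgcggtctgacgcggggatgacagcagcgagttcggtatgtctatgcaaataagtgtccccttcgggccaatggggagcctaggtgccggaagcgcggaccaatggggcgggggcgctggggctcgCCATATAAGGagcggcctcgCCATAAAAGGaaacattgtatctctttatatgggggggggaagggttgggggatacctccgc
Srf itself was at 2.04, 38, 21.7 and 16.1 CPM and Myocd, its smooth muscle coactivator, at 2.04, 7.88, 8.95 and 12.4 CPM in mural wells. Each was detected in few wells, 29 and 19 respectively. A match in the window describes the letters there and not binding.

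**Figure D2:**
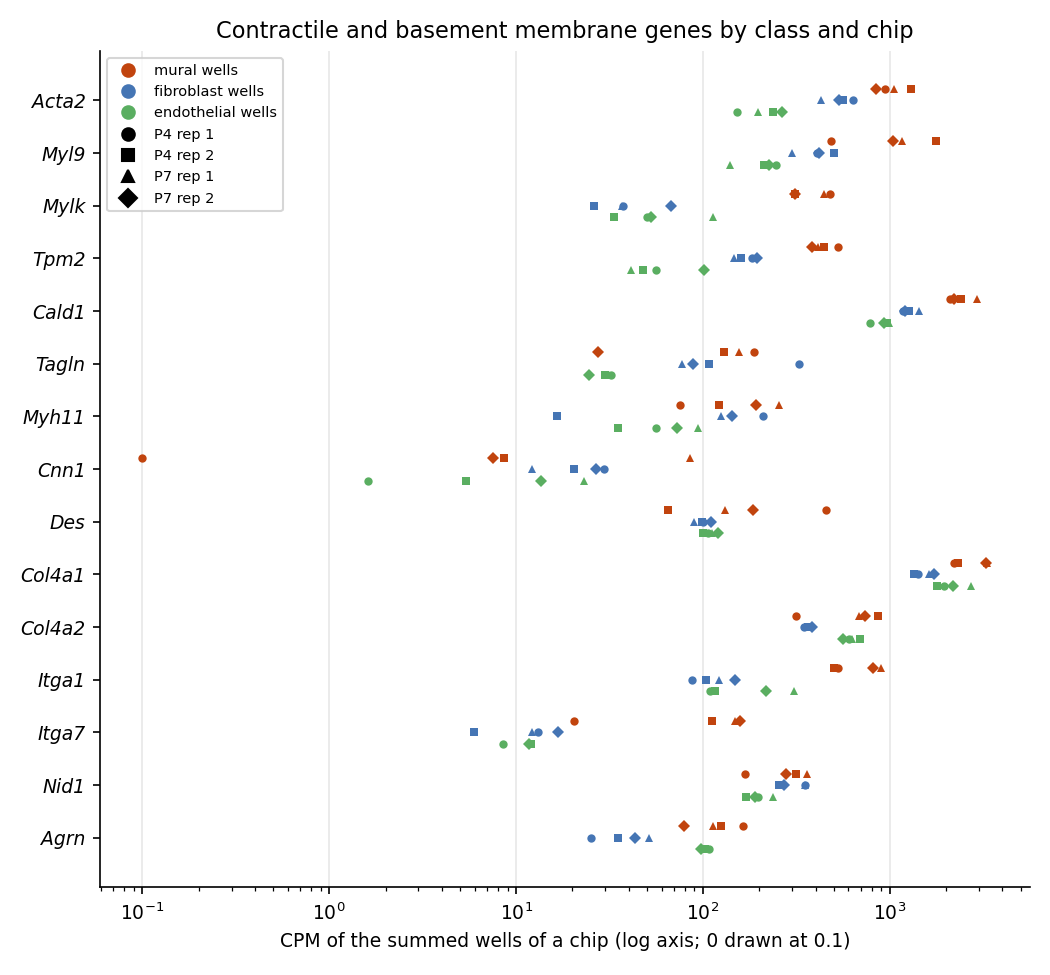
CPM of 15 contractile and basement membrane genes in the summed wells of each chip on a log axis, with mural, fibroblast and endothelial wells in 3 colours, chips as marker shapes and 0 drawn at 0.1. Mylk, Tpm2 and Itga1 lie to the right in mural wells of every chip, whereas Tagln and Myh11 overlap with fibroblast wells.

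Genes for channels and for signals that relax or constrict vessels were the third such group by this count. Of 36 listed genes, 24 passed the filter, and 8 of them (33.3%) were highest in mural wells on every chip, against 3.64% over all genes. The whole list did not set mural wells apart from endothelial wells, at 2251 to 3069 CPM against 2011 to 2734 CPM. Its mural sum was below the endothelial sum on both P4 chips (2719 against 2734 and 2251 against 2616 CPM). Fibroblast wells summed to 883 to 1126 CPM. Kcnmb1, the beta subunit of the calcium-activated potassium channel of smooth muscle, was at 83.7, 154, 87.8 and 52.2 CPM against at most 8.88 CPM. Atp1b2, a sodium pump subunit, was at 151, 80.9, 173 and 149 CPM. Gucy1a1 and Gucy1b1, the subunits of the nitric oxide receptor guanylate cyclase, were at 596, 697, 737 and 714 CPM and at 312, 526, 477 and 369 CPM, against at most 178 and 128 CPM elsewhere. Pde5a, which degrades the cyclic GMP made by that enzyme, was at 125, 107, 119.8 and 81.1 CPM against at most 57.2 CPM.

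Receptors for vasoactive hormones varied more. Ednra, the endothelin receptor of mural cells, was at 30.6, 99.6, 84.4 and 119 CPM against at most 19.3 CPM, whereas Ednrb, the endothelial type, was at 120.4, 20.1, 32.4 and 37.9 CPM and reached 348 CPM in endothelial wells. P2ry14, a receptor for UDP sugars, was at 161, 58.7, 63.5 and 48.4 CPM against at most 3.2 CPM. Agtr1a, an angiotensin receptor, was at 10.2, 16.5, 53.3 and 20.6 CPM, with 55.3% of its UMIs in 1 well. Adra1a and Adra1d, adrenergic receptors, were detected in 3 wells and 1 well.

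The recruitment list, with PDGF, Notch, angiopoietin, sphingosine phosphate and TGF-beta genes, had 2 of 31 genes (6.45%) highest in mural wells on every chip and 4 (12.9%) lowest, against 3.64% highest and 5.71% lowest over all genes outside the marker sets. The highest were S1pr3, a sphingosine phosphate receptor, at 257, 171, 478 and 413 CPM, and Heyl, a Notch target, at 198, 117, 123 and 75.8 CPM against at most 77.5 CPM. The lowest were Tek, Efnb2, S1pr1 and Gpr4, and Tek, the angiopoietin receptor of endothelium, was at 10.2, 57.3, 40.9 and 63.8 CPM against 240.4 to 317 CPM in endothelial wells. Pdgfb, the ligand made by endothelium, was at 0, 2.86, 13.6 and 11.3 CPM in mural wells and at most 22.8 CPM in endothelial wells.

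Basement membrane and matrix genes summed to between 12759.9 and 18844 CPM in mural wells, against 16310.4 to 18200.1 CPM in fibroblast and 11411 to 13389 CPM in endothelial wells. Of the 43 that passed the filter, 4 (9.3%) were highest in mural wells on every chip, Col4a1, Itga1, Itga7 and Itgb1, and 3 (6.98%) were lowest, Plod2, Fbln5 and Hspg2, against 3.64% and 5.71% over all genes. Col4a1, the main collagen of basement membrane, was at 2215, 2311, 3326 and 3260.3 CPM against at most 2711 CPM. Itga1, the collagen-binding integrin, was at 529, 504, 898 and 815 CPM against at most 305 CPM. Itga7, a laminin-binding integrin of muscle, was at 20.4, 112, 149 and 157 CPM against at most 16.8 CPM. Postn, periostin, was at 576, 647, 880.3 and 616 CPM, against 1021 to 1846 CPM in fibroblast and 93.6 to 181 CPM in endothelial wells. Hspg2, the basement membrane proteoglycan perlecan, was at 120.4, 67.3, 65.2 and 66.4 CPM, against 87.3 to 130.1 CPM in fibroblast and 144 to 171 CPM in endothelial wells.

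Cell cycle genes summed to 6046 and 7856 CPM at P4 and to 5219.6 and 3674 CPM at P7 in mural wells, against 3505 to 4140 CPM in fibroblast and 3129 to 4890.1 CPM in endothelial wells. On P7 replicate 2 the mural sum lay below the endothelial sum of 4483 CPM. Of 34 genes of the list, 2 (5.88%) were highest in mural wells on every chip and 1 (2.94%) was lowest, near the 3.64% and 5.71% over all genes. Ccnd2, a D-type cyclin and among the highest, was at 696, 1247, 652 and 586 CPM. Mki67, the proliferation marker, was at 433, 678, 660.3 and 618 CPM in 140 wells. Wells in which the list took at least 1% of UMIs numbered 6 of 26, 7 of 50, 11 of 89 and 7 of 86. After thinning to 2000 UMIs, which left out 1 mural well on P4 replicate 2 and 1 on P7 replicate 2, the median mural well held 9, 8, 6 and 6 UMIs of the list. The highest wells of the 4 chips held 38, 48, 58 and 48 such UMIs, and the lowest held 0 on every chip.

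**Figure D3:**
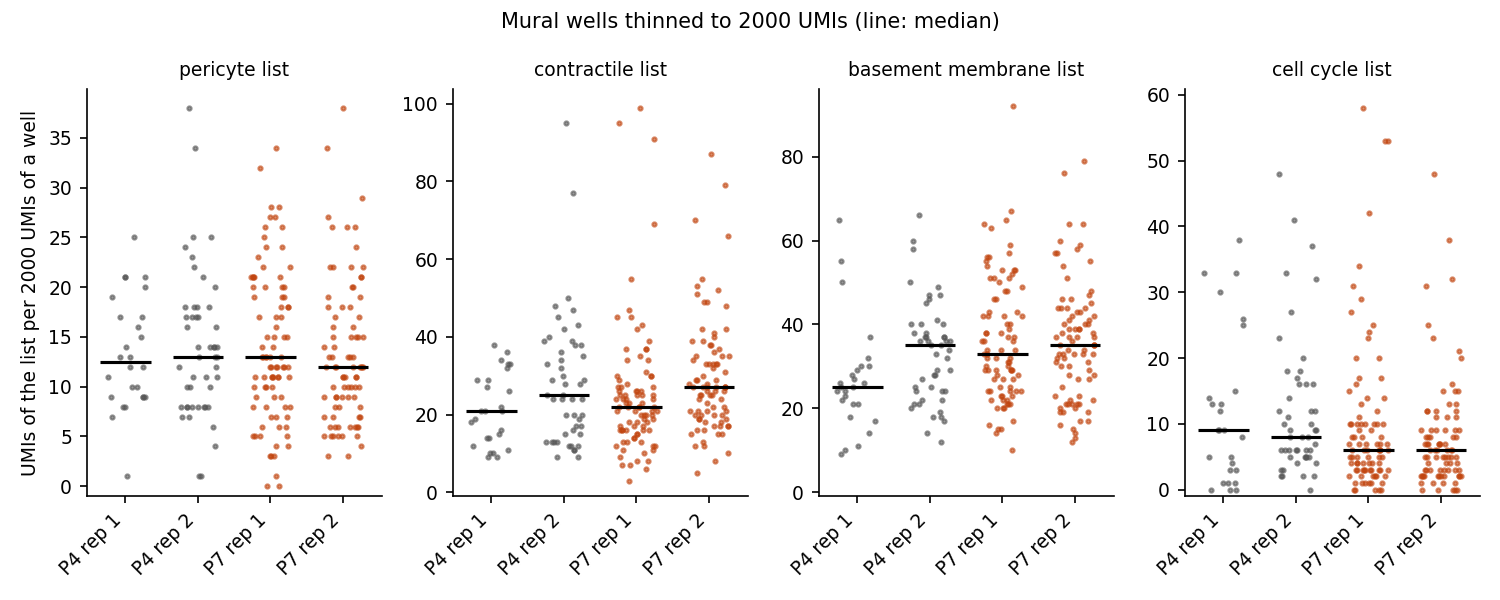
UMIs of 4 gene lists in each mural well after thinning to 2000 UMIs, by chip (P4 grey, P7 red), with the median as a line. The pericyte medians lie between 12 and 13 on all chips, and the cell cycle medians are 9 and 8 at P4 and 6 on both P7 chips with long upper tails.

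The mural wells were not uniform. The 51 wells with a Myh11 UMI (4, 4, 16 and 27 per chip) were deeper, with a median of 32741 UMIs against 16787.5 in the other 200. Summed, they held Acta2 at 2067 CPM against 637 CPM, Myl9 at 2030 against 880 CPM and Tagln at 262 against 46.2 CPM. On P4 replicate 1 Tagln ran the other way, at 85.7 against 239 CPM, as did Myl9, at 373 against 536 CPM. Cnn1 was at 124 against 0.986 CPM, but it was found in 7 of the 51 wells and most of its UMIs came from 1 well. They held less of several pericyte transcripts, with Abcc9 at 348 against 853 CPM, Vtn at 148 against 417 CPM, Colec11 at 476 against 883 CPM and Kcnj8 at 644 against 912 CPM. Notch3 (183 against 178 CPM) and P2ry14 (60.2 against 64.9 CPM) were at similar levels in both. The contractile gene Des was lower in the wells with Myh11, at 134 against 171 CPM.

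Chip by chip, Abcc9 was lower in the wells with Myh11 on all 4 chips, at 159 against 799, 329 against 764, 256 against 1000.3 and 434 against 777 CPM. Rgs5, Kcnj8 and Colec11 were lower in them on all 4 chips too. Acta2 was higher in them on 3 chips (6087 against 891, 2735 against 517 and 1424 against 508 CPM) and was 924 against 946 CPM on P4 replicate 1. Vtn was lower in them on 3 chips and higher on P4 replicate 2, at 338 against 218 CPM. A deeper well is more likely to show a Myh11 UMI, the P4 chips had 4 such wells each, and the part of depth in these differences was not tested.

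**Figure D4:**
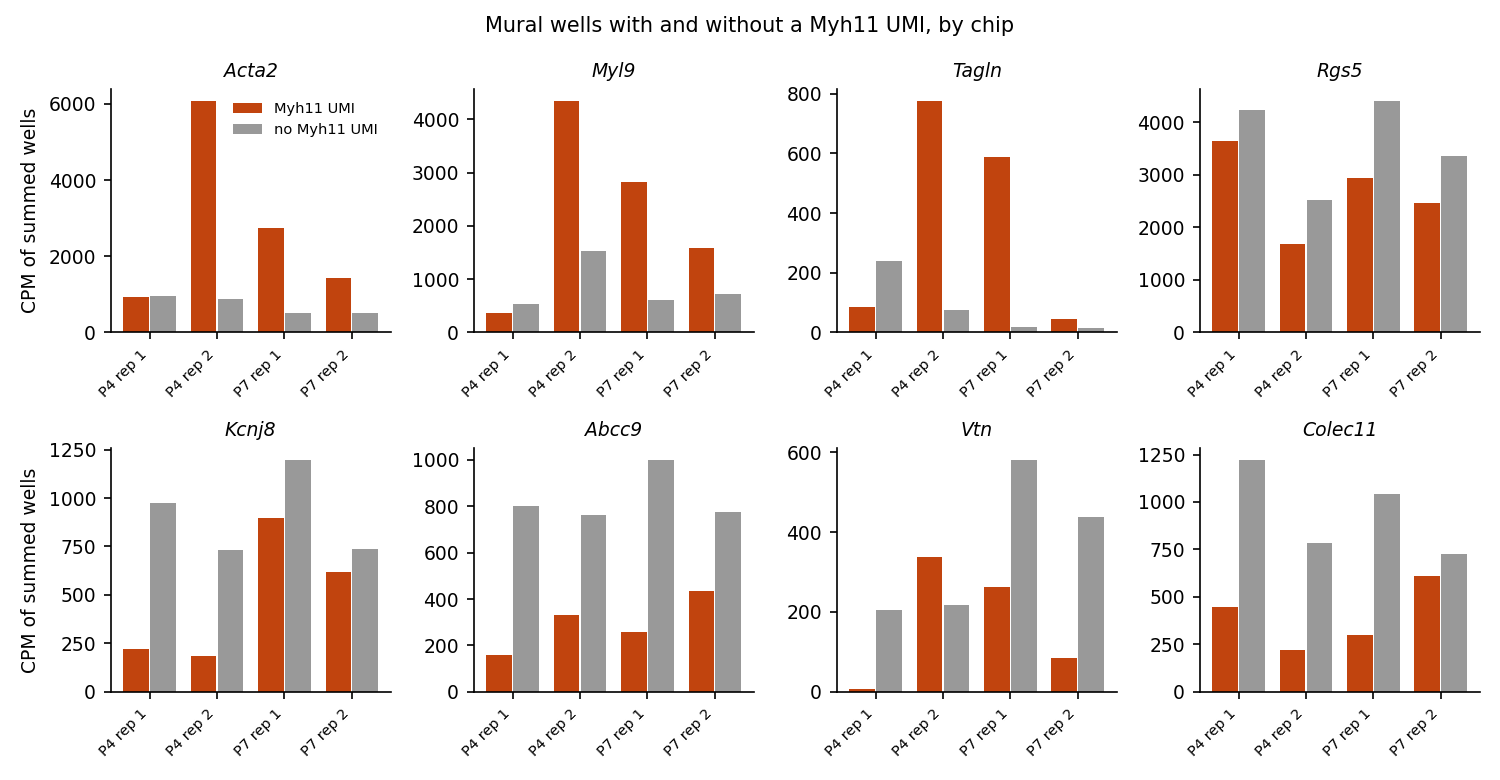
CPM of 8 genes in the summed mural wells with a Myh11 UMI (red bars) and without one (grey bars) on each chip, on linear axes from 0. Abcc9, Kcnj8, Colec11 and Rgs5 are lower with Myh11 on all 4 chips, and Acta2, Myl9 and Tagln are higher on all but P4 replicate 1.

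Mural wells made up 2.35% (95% Clopper-Pearson interval 1.54 to 3.43) and 3.92% (2.92 to 5.14) of passing wells on the P4 chips and 6.94% (5.61 to 8.47) and 7.43% (5.98 to 9.09) on the P7 chips. Among mural, fibroblast and endothelial wells together they made up 4.42%, 6.3%, 9.59% and 9.17%. Both P7 chips lay above both P4 chips in each share. A shallower well is less likely to show 4 mural genes, and mural wells had a lower median depth on both P4 chips. Fibroblast and endothelial wells of P4 replicate 2 were deeper at the median than those of P7 replicate 1. The part of depth in these shares was not tested. The intervals cover counting error only, and an exact two-sided permutation test of 2 chips against 2 cannot give a p below 0.333. Between M1 and M2 the mural wells were divided, chip by chip, as 17 and 9, 23 and 27, 45 and 44, and 30 and 56.

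The change from P4 to P7 was tested on the 4 chip sums with edgeR's quasi-likelihood test and Benjamini-Hochberg adjustment. The test takes the 2 chips of a stage as replicates, although by the paper's replicate count their mice were not all distinct. With sums per animal name 0 genes were called (adjusted p = 0.528 for Hba-a2 and 0.145 for Xist by edgeR). Of the 10267 genes fitted, 3 were called higher at P7 (0.0292%) and 1 lower (0.00974%) at an adjusted p under 0.05, and 708 had an unadjusted p under 0.05. The 3 that rose were globins. Hba-a2, an alpha globin chain of red blood cells, was at 241 and 239.9 CPM at P4 and 4739 and 20843 CPM at P7, a log2 change of 5.79 ± 0.64 (SE, adjusted p = 0.0197 by edgeR). Hbb-bs, a beta globin chain, was at 10.2 and 48 CPM and then 1289 and 4455 CPM (6.55 ± 0.81, adjusted p = 0.0279). Hbb-bt was at 4.08 and 11.5 CPM and then 359 and 2184 CPM (7.23 ± 0.93, adjusted p = 0.0282). These globin genes have near-identical copies, so how reads were divided between the copies is uncertain.

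Globin transcripts were high at P7 in every class. The 7 erythroid genes summed to 384 and 636 CPM at P4 and 7506 and 40075 CPM at P7 in mural wells, to 487 to 516 CPM and then 10328 to 10930 CPM in fibroblast wells, and to 768 to 1502 CPM and then 7793 to 8809 CPM in endothelial wells. One mural well of P7 replicate 2 held 57792 globin UMIs, 61.6% of its non-mitochondrial gene UMIs and 46.1% of all globin UMIs in mural wells. The median mural well held 0.0142% and 0.00854% globin at P4 and 0.616% and 0.318% at P7. Without that well the log2 change of Hba-a2 was 4.97 and the 3 globins and Xist were still called. None of the 4 was called without the filter on low counts or when wells with a larger fibroblast sum were left out. The part of red blood cell RNA in the change was not tested.

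Xist, the RNA that silences one X chromosome in female cells, fell by 8.36 on the log2 scale (SE 1.14, adjusted p = 0.0352 by edgeR), from 289.9 and 158 CPM at P4 to 0 and 1.13 CPM at P7. Ddx3y, a gene of the Y chromosome, was at 0 and 0 CPM at P4 and at 78.4 and 105 CPM at P7. Fibroblast and endothelial wells showed the same split. The sex of the animals and the stage cannot be told apart on these chips, and this holds for every comparison of P7 with P4.

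Genes of the atrium also divided the stages. Myl7, the atrial myosin light chain, was at 906 and 1007 CPM at P4 and at 14.5 and 0.375 CPM at P7, with a log2 difference of -7.03 and an adjusted p of 0.0558 by edgeR. Sln, sarcolipin, was at 289.9, 319, 44.8 and 1.88 CPM and Nppa, the atrial natriuretic peptide, at 106, 102, 7.25 and 1.5 CPM. In fibroblast wells Myl7 was at 601 and 1389 CPM at P4 and at 14.4 and 17.7 CPM at P7. How much atrial tissue entered each digestion cannot be told apart from stage here.

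**Figure D5:**
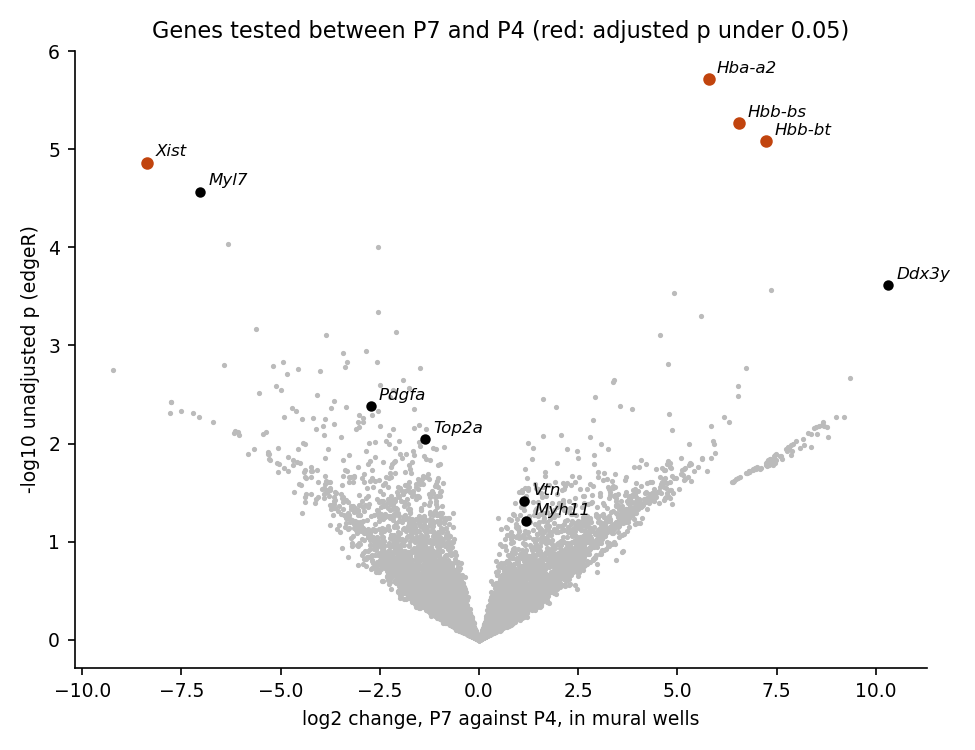
Each point is a gene tested between the P7 and P4 sums of mural wells, with the log2 change on the x axis and -log10 of the unadjusted edgeR p on the y axis. The 4 red points, Hba-a2, Hbb-bs, Hbb-bt and Xist, passed an adjusted p of 0.05, and black points mark named genes that did not.

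No gene of the mural lists passed the adjusted threshold. As background for the counts that follow, 22.2% of all genes fitted had both P7 chips above both P4 chips and 16.6% had both below. Of 30 pericyte genes, 4 were above and 3 below, with a median log2 difference of 0.0641 against 0.0472 over all genes. Abcc9 (log2 difference 0.17, adjusted p = 0.954 by edgeR), Colec11 (-0.12, adjusted p = 0.968) and Cspg4 (-0.17, adjusted p = 0.966) overlapped between the stages, and the sign of each turned under some alternatives. Vtn was higher on both P7 chips, with a log2 difference of 1.14 and an adjusted p of 0.705, as was Nr2f2, a transcription factor of veins, at 63.3, 63, 185 and 145 CPM (adjusted p = 0.71 by edgeR).

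Of 26 contractile genes, 8 were above and 2 below at P7, with a median of 0.116. Acta2 overlapped between the stages (-0.22, adjusted p = 0.938 by edgeR, with a sign that turned under some alternatives) and Myh11 was higher on both P7 chips (1.18, adjusted p = 0.719). Of 24 channel and vasoactive genes, 10 were above and 1 was below, with a median of 0.415. Prkg1, the cyclic GMP kinase, was at 49, 37.2, 137 and 67.9 CPM and Plce1, a phospholipase C, at 51, 112, 177 and 161 CPM.

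Of 43 basement membrane genes, 12 were above and 4 below, with a median of 0.287. Col4a1 (0.56, adjusted p = 0.732 by edgeR) and Itga1 (0.75, adjusted p = 0.714) were higher on both P7 chips. Of 31 recruitment genes, 9 were above and 5 below, with a median of 0.306. S1pr3 was higher on both P7 chips (1.09, adjusted p = 0.703). Pdgfa, a PDGF ligand, was at 118 and 188 CPM at P4 and 26.4 and 19.5 CPM at P7 in 37 wells, with a log2 difference of -2.73 and an adjusted p of 0.703.

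Of 34 cell cycle genes, 0 were above and 13 below at P7 and 21 overlapped between the stages, with a median log2 difference of -0.842. Top2a, the DNA topoisomerase of dividing cells, was at 786, 901, 444 and 208 CPM (-1.37, adjusted p = 0.703 by edgeR). Birc5, survivin, was at 310.3, 329, 183 and 138 CPM, and Ccnb2, a B-type cyclin, at 259, 179.8, 87 and 61.2 CPM. Among those that overlapped, Mki67 (0.21), Ccnd1 (0.58) and Pcna (0.23) had positive log2 differences.

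Of 26 immediate early and dissociation genes, 11 were above and 2 below, with a median of 0.816. Jun was at 114, 198, 363 and 575 CPM (1.60, adjusted p = 0.703 by edgeR), and Klf2 at 4.08, 10.7, 46.9 and 28.1 CPM. The list summed to 2292 and 2737 CPM at P4 and 4601 and 3550 CPM at P7 in mural wells. It was also higher on both P7 chips in fibroblast and endothelial wells. Of its 26 genes, 0 were highest in mural wells on every chip and 6 (23.1%) lowest, against 3.64% and 5.71% over all genes. Interferon response genes had 7 of 16 above and 2 below (median 0.711). Of the 16, 2 (12.5%) were highest in mural wells on every chip and 4 (25.0%) lowest, against 3.64% and 5.71% over all genes. Ifitm1, among the highest, was at 59.2, 45.8, 146 and 72.1 CPM. Imprinted growth genes had 3 of 14 above and 4 below (median 0.0658), and Igf2, the growth factor, was at 310.3, 379.6, 199 and 304 CPM.

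Whether any change was particular to mural wells was tested in 12 chip sums of the 3 classes, with the chip as a term. Of 17162 genes, 0 (0%) differed in their P7 against P4 change from fibroblast wells in either direction, and 0 (0%) differed from endothelial wells, by edgeR at an adjusted p under 0.05. At an unadjusted p under 0.05 there were 1292 and 1552 genes, and DESeq2 on the same sums called 210 and 342. Among the cell cycle genes the smallest adjusted p was 0.631 against fibroblast and 0.259, for Top2a, against endothelial wells. Among the pericyte genes it was 0.656 and 0.433. Over all genes the median difference of the change was 0.26 against fibroblast and 0.214 against endothelial wells.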

How the data were processed

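Cells of P4 and P7 hearts, from pieces labelled as ventricle, were dispensed on ICELL8 chips, and the chips' wells were imaged so that wells with a single live cell could be taken, so no doublet caller was run. Per the labels and the study's methods, the authors assigned reads to wells by barcode, trimmed them, aligned them to mm10 with STAR 2.5.2b, assigned them to genes with featureCounts (Subread 1.4.6-p1) and collapsed duplicates by UMI. What the authors deposited is a table of raw UMI counts for each well, not normalized. Well types were read from the deposited well reports.

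The members and gene lists were chosen with earlier results of these data known. Wells were selected by the rule given above and were grouped by chip from the labels. Fibroblast and endothelial wells were non-members whose own set gave the largest sum, with 4 or more of its genes detected and 0.1% or more of UMIs. Cells are not replicates, so UMI counts were summed per chip and class (at least 10 wells) and fitted with edgeR 4.0.16 in R 4.3.3 (TMM scaling, filterByExpr, glmQLFit and glmQLFTest). P-values were adjusted over all genes fitted, with a threshold of 0.05. The 24 genes of the 4 marker sets, of which 23 passed the filter, were given no test. The chips of a stage may hold the same mice, and by the paper's replicate count their mice were not all distinct. P-values thus measure only the spread between these chips, which may be technical. Exact intervals are Clopper-Pearson and cover counting error only. The mural sums ran from 489893 to 2664487 UMIs, which limits the precision at P4.

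Genes were named as best known members of the lists, as called genes, or by the ratio ranking of 15 genes. Xist and Ddx3y were given as a check of the animals, and Myl7, Sln and Nppa were chosen after their values were seen. Alternatives were DESeq2 1.42.0, upper-quartile scaling, no filter, all 12 sums together, sums per animal, each chip left out, and other well rules, UMI limits and class rules. Scripts were tested on simulated data, in which most changes put in were missed. The test of P7 against P4 called 5.88% of genes given a log2 change of 2 and 46.7% of those given 4. For the change in mural minus fibroblast wells it called 3.06% and 28.6%. False calls numbered 3 and 2 in these tests. Python 3.11.15 with numpy 2.4.6, scipy 1.17.1 and pandas 2.3.3 was used. Promoters came from RefSeq (GRCm38.p6) by symbol, with 22 of 27 contractile and 21 of 32 pericyte genes matched. P14, P28 and knockdown chips were not analysed here.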

Additional observations from a re-analysis of the deposited data

Results flagged for a closer look

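TDtomato, the reporter that tamoxifen switches on in cardiomyocytes of this strain, lies outside the gene comparisons. At least 1 UMI of it was found in 96 of the 251 mural wells (38.2%), with at most 31 in a well. These summed to 461 UMIs, beside 6896334 non-mitochondrial gene UMIs, a total that leaves the reporter out. TDtomato was found in 0 of 40 control wells, which together held only 4943 non-mitochondrial gene UMIs, so a count of 0 there says little. The reporter stood at 51, 46.6, 48.6 and 96.5 CPM in mural wells, at 37.8 to 109 CPM in fibroblast wells and at 57.3 to 162 CPM in endothelial wells. Its source in mural wells was not tested.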

How the results depend on the processing

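No paired analysis was possible because the labels give the chips no replicate numbers that pair P4 with P7. Of the P7 against P4 comparison in mural wells, 4 genes were called, and the count was 80 with DESeq2, 0 without the filter on low counts, 50 with all 12 sums fitted together, 0 with sums per animal, 0 with the mural sum also larger than the fibroblast sum, 1 with the mural sum at 0.5% or more and 8 with at most 5000 UMIs from a well. Leaving out one chip at a time gave 12 to 121 calls, with the 4 genes among them each time. The lone chip is then assumed to vary like the others. Leaving out P4 replicate 2 gave 121 and P4 replicate 1 gave 31. Leaving out the well with most globin UMIs, an alternative chosen after seeing the data, gave 5 calls with the same 4 genes among them. Upper-quartile scaling moved the median log2 change of all genes from 0.0472 to 0.157. For the change in mural minus fibroblast wells, the count of 0 became 210 with DESeq2 and 52 without the filter, and 0 to 3 with a chip left out (3 without P4 replicate 2). For the change in mural minus endothelial wells it became 342 with DESeq2, 132 without the filter, 1 with the largest set alone, 2 without the chip term, and 0 to 57 with a chip left out (57 without P4 replicate 2). Pooled over the chips, mural wells were 5.21% of passing wells, and 5.96% with 1000 genes per well, 6.95% with 3 mural genes and 4.02% with a share of 0.5%. The number of mural wells ranged from 194 to 335 over these rules. Of 29 named genes followed over 17 alternatives, 25 kept their direction in each. The other 4, none of them called, turned on the log2 scale. With a chip left out, Abcc9 ran from -0.000646 (without P4 replicate 1) to 0.395 (without P4 replicate 2), Colec11 from -0.25 to 0.0548 (without P4 replicate 1), Cspg4 from -0.67 to 0.188 (without P7 replicate 2) and Acta2 from -0.459 to 0.0864 (without P4 replicate 2). With sums per animal Abcc9 was -0.0262. Colec11 was 0.0826 with 3 mural genes and 0.271 without the deepest well of each sum. With at most 5000 UMIs from a well Colec11 was 0.111, Cspg4 0.25 and Acta2 0.0479. Hba-a2 lost its call under 3 of the 17 alternatives, Hbb-bs and Hbb-bt under 5 and Xist under 4. Myl7 gained one under 12, Ddx3y under 4, Sln and Nppa under 2 each and Pdgfa under 1, DESeq2. The cause of these changes was not tested. The P4 chips, with 26 and 50 wells, limit what can be detected.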
